A study of Mus musculus with 6 samples.

Results

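The genes described here are 5 genes of cholesterol efflux and lipoprotein metabolism: Nr1h3, Abca1, Abcg1, Apoe and Lpl. Their H3K27ac peaks were taken from windows that hold each gene with about 10 kb on each side, in mouse build mm39: Nr1h3 at chr2:91004000-91043000, Abca1 at chr4:53020000-53171000, Abcg1 at chr17:31266000-31347000, Apoe at chr7:19420000-19444000 and Lpl at chr8:69323000-69371000. Of 79419 peaks in 3 lists, 60 overlapped these windows: 24 of 29276 in wild type, 15 of 25666 in the Bmal1 knockout (Bmal1KO) and 21 of 24477 in the Mfp2 knockout (Mfp2KO).

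H3K27ac, acetylation of histone H3 at lysine 27, marks active promoters and enhancers. The study measured it with ChIP-seq (antibody Abcam ab4729) in the mouse macrophage-like line RAW264.7, grown in DMEM with serum, in cells that were wild type (titled Naive) or carried a knockout of Bmal1, the core clock transcription factor, or of Mfp2, an enzyme of peroxisomal β-oxidation. Each genotype had 1 ChIP library (15.8 M, 12.5 M and 15.8 M tags for wild type, Bmal1KO and Mfp2KO) and 1 input library. The labels name no stimulus, and whether either knockout line is clonal or pooled is not in them. With 1 library per genotype no difference was tested, and a difference between genotypes cannot be told apart from one between libraries or clones. The 95% intervals cover the counting of tags or peaks only.

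Macrophages that take up lipoproteins must export the cholesterol they cannot degrade. The liver X receptor LXRα, encoded by Nr1h3, is a nuclear receptor that senses oxysterols and binds DNA with the retinoid X receptor. Among its targets in macrophages are the transporters ABCA1, which loads cholesterol onto lipid-poor apolipoprotein A-I, and ABCG1, which exports it to mature HDL. APOE, secreted by macrophages, is a further cholesterol acceptor, and LPL is the lipase that hydrolyses the triglycerides of lipoproteins. BMAL1 binds E-boxes, with CACGTG as the canonical form, together with CLOCK.

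RefSeq promoter sequences (build GRCm38.p6) were matched by symbol for 3 of the 5 genes, Abca1, Apoe and Nr1h3, each on the minus strand. The 250 bases before the first listed start are shown 5′ to 3′ because peaks at or near these starts carry much of what follows. Capitals mark 4 motifs searched on both strands: the E-box CACGTG, the GC box GGGCGG, the TATA box TATAAA and the nuclear receptor motif AGGTCA. None of the 4 was found in the sequences shown for Apoe and Nr1h3. Of the 2 further promoters listed for Apoe and the 1 further for Nr1h3, a single one, of Apoe, held a match, to the TATA box.
Abca1: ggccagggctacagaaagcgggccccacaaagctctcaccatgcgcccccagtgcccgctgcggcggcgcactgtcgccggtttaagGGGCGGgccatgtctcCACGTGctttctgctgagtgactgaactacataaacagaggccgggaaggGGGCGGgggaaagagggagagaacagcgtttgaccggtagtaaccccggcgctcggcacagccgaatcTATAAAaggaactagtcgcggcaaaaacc
Nr1h3: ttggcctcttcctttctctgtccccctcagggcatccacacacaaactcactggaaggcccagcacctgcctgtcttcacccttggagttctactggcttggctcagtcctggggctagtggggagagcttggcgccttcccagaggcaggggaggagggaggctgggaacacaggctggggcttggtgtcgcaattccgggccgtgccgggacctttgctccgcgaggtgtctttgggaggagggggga
Apoe: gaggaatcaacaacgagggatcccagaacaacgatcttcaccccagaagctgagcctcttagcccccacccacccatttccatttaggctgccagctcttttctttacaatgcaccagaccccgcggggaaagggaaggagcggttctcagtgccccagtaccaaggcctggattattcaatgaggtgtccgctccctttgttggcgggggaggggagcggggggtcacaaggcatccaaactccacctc

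The Abca1 sequence held 1 E-box, at -147 to -142 from the start, 2 GC boxes and 1 TATA box at -29 to -24. Of 32851 RefSeq promoter sequences of this length, 6.02% held the E-box, 32.7% the GC box, 12.4% the TATA box and 14.0% the nuclear receptor motif. The LXR element DR4 was searched only as an exact repeat of that motif after 4 free bases. This exact form, which also holds the motif on its own, was found in 5 of the 32851 and in none of the 3 genes. Elements that differ from it in any base were not searched, so these counts do not show that a promoter lacks an LXR element. GC content was 61.6% for Abca1, 63.2% for Nr1h3 and 57.2% for Apoe, against a median of 52.4%. CG dinucleotides set Abca1 apart, with a count of 20 against 7 in Nr1h3, 8 in Apoe and a median of 6. A match is a description of the letters and does not show binding, and the peaks, which are in another build, were not aligned to these bases.

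At these loci Bmal1KO had the fewest H3K27ac peaks and the fewest tags in peaks, and Mfp2KO the most tags. Tags are given throughout per 10 M tags of the library. Summed over the 5 windows, wild type had 1995 tags over 52.8 kb of called sequence, Bmal1KO 1338 tags over 26.3 kb and Mfp2KO 3371 tags over 43.6 kb. The called length was thus 49.9% of wild type in Bmal1KO and 82.7% in Mfp2KO, whereas the whole lists stood at 69.9% and 69.3%. In the headers of the lists the share of all tags that lie in peaks was 38.7% for wild type, 37.4% for Bmal1KO and 57.2% for Mfp2KO. Part of a higher tag count in Mfp2KO is therefore shared by the whole list: the median region called in wild type and Mfp2KO had 1.35 times the wild-type tags, and the median region called in wild type and Bmal1KO 0.843 times. Ratios are therefore also given relative to these medians.

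**Figure D1:**
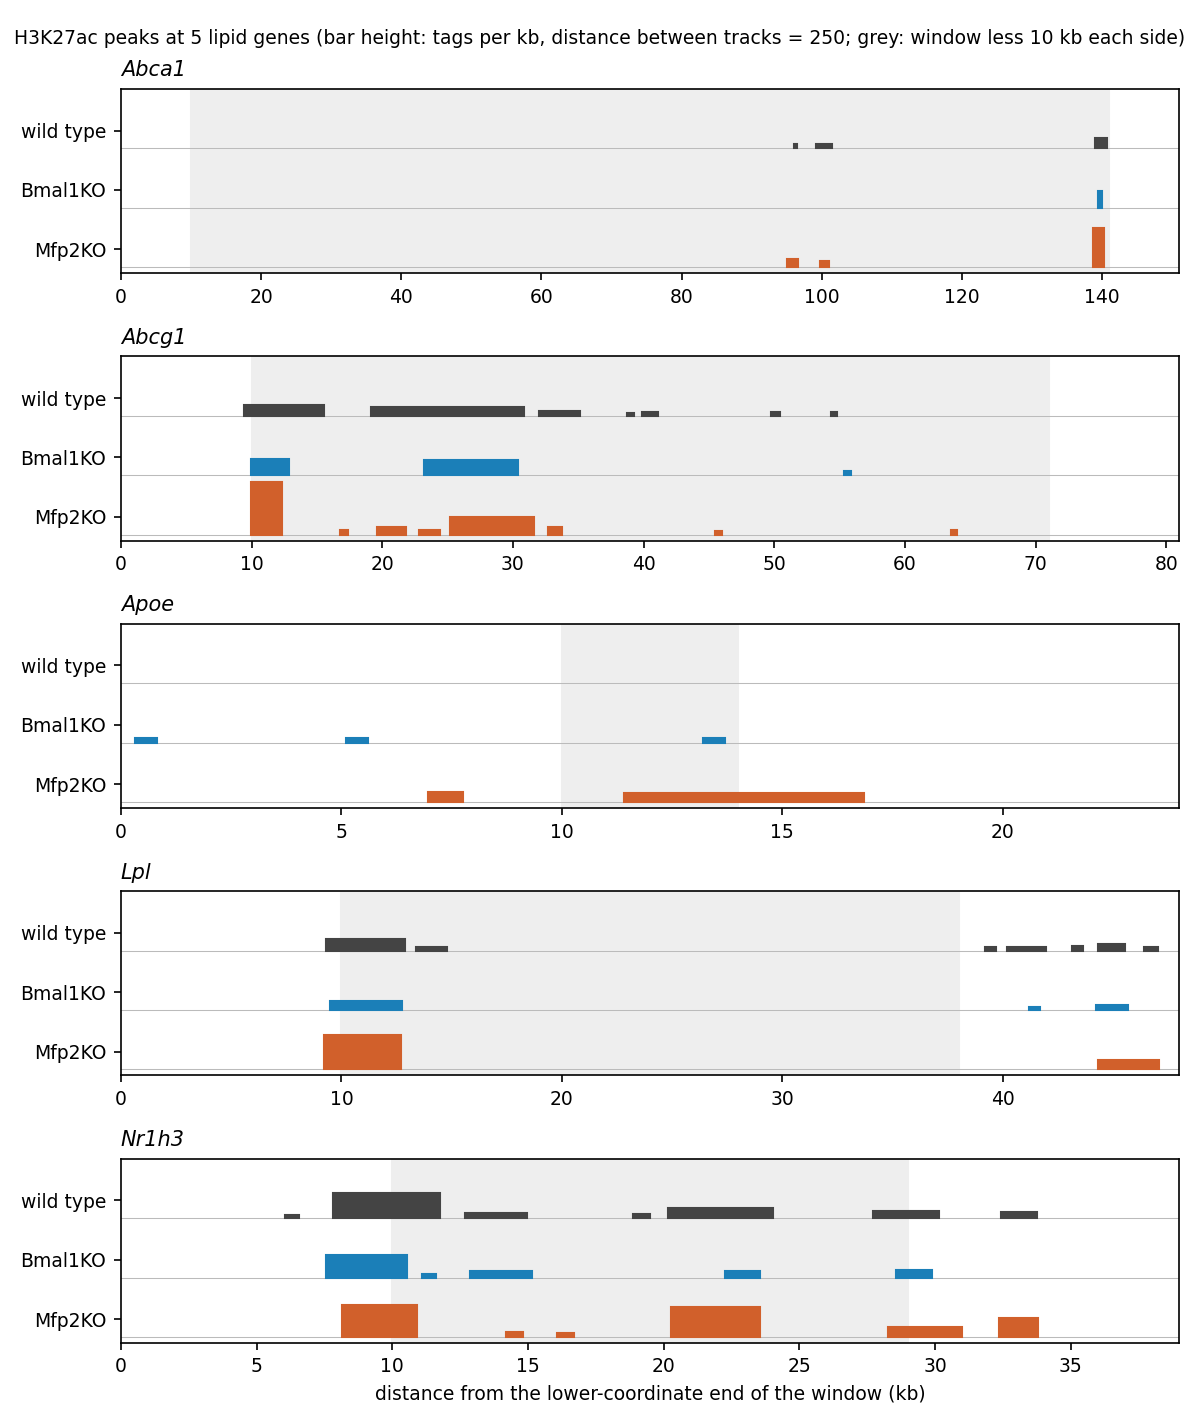
H3K27ac peaks of each genotype along the 5 windows, by distance in kb from the lower-coordinate end of the window, with bar height showing tags per kb of peak and grey the window without its 10 kb flanks. Wild type has no peak in the Apoe window, where Mfp2KO has a peak of 5431 bp.

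**Figure D2:**
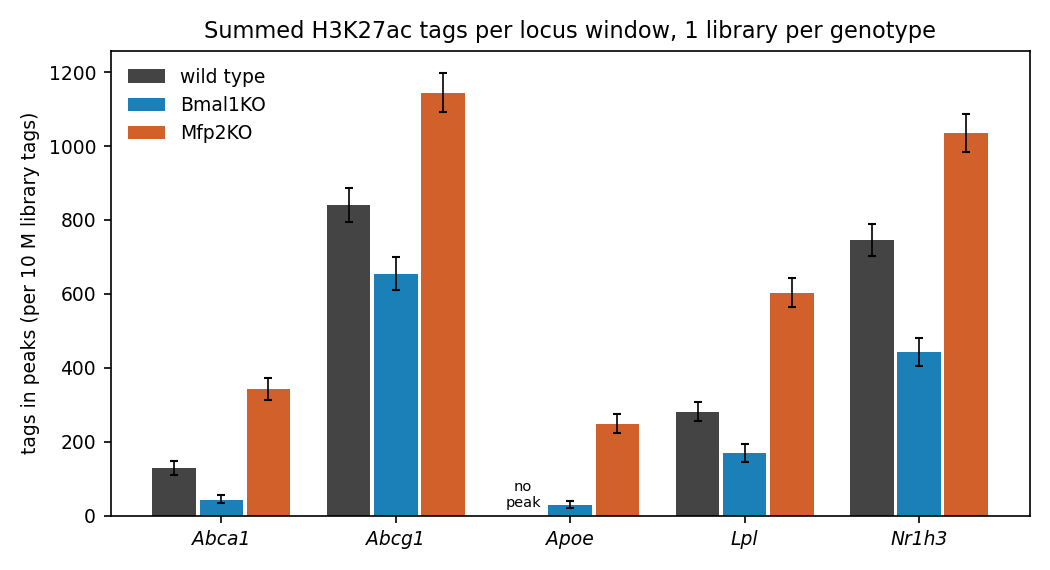
Tags in peaks summed over each window (bars, tags per 10 M library tags) with exact 95% Poisson counting intervals, for 1 ChIP library per genotype. In each of the 5 windows Mfp2KO is highest, and Bmal1KO is the lowest of the genotypes with a peak.

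The order of the genotypes was the same in the 4 windows with wild-type peaks. Nr1h3 had 745 tags in wild type, 442 for Bmal1KO and 1034 for Mfp2KO. Abca1 had 128, 43.5 and 342 tags. Both genes were thus lowest in Bmal1KO and highest in Mfp2KO, as was the second transporter gene. Abcg1 had 840, 654 and 1144 tags. Lpl had 282, 169 and 603 tags. At Apoe wild type had no peak, Bmal1KO 28.8 tags and Mfp2KO 248. These sums depend on what was called: peaks were called separately in each list, and a stretch without a call counts as 0 tags. A ratio of sums therefore describes called peaks and cannot be read as a change of the mark over the locus. As such a ratio to wild type, Bmal1KO was at 0.339-fold (interval 0.250 to 0.464) for Abca1, 0.594-fold (0.536 to 0.657) for Nr1h3, 0.600-fold (0.506 to 0.707) for Lpl and 0.779-fold (0.713 to 0.851) for Abcg1. Relative to the median region these were 0.402-fold for Abca1, 0.704-fold for Nr1h3, 0.712-fold for Lpl and 0.924-fold for Abcg1, the last close to that region. As a share of all tags in peaks, the Abcg1 sum in Bmal1KO was lower than wild type, at -0.31 on the log2 scale. The Abca1 value set 1 Bmal1KO peak over 0.634 kb against 3 wild-type peaks over 4.53 kb, and with windows 15 kb longer on each side its log2 ratio went from -1.56 to -0.02. Mfp2KO was at 2.67-fold (2.27 to 3.15) for Abca1, 2.14-fold (1.91 to 2.40) for Lpl, 1.39-fold (1.29 to 1.50) for Nr1h3 and 1.36-fold (1.27 to 1.46) for Abcg1. Relative to the median region called in both lists, Mfp2KO stood at 1.98-fold for Abca1 and 1.59-fold for Lpl, while Nr1h3 at 1.03-fold and Abcg1 at 1.01-fold were close to that region.

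The lower sums in Bmal1KO went with shorter called sequence. Length was 14.0% of wild type at Abca1, 44.8% at Abcg1, 54.5% at Lpl and 56.0% at Nr1h3. Tags per kb of called sequence were not lower: they were 2.42 times wild type at Abca1, 1.74 times at Abcg1, 1.10 times at Lpl and 1.06 times at Nr1h3. The direction of the Bmal1KO difference thus depended on whether total tags or density was read. In Mfp2KO density was higher at every locus with wild-type peaks, from 1.81 times at Nr1h3 to 3.28 times at Lpl, but so it was over the list. For regions called in both lists, the median density ratio of Mfp2KO to wild type was 1.59 at the 5 loci and 1.57 for all regions, and for Bmal1KO it was 1.02 and 1.03. The median density ratio to wild type at these loci was thus near that of all regions. Single regions were spread around it, from 0.864 to 4.65 in Mfp2KO and from 0.673 to 1.64 in Bmal1KO. When tags were instead taken as a share of all tags in peaks, Abcg1 and Nr1h3 turned slightly lower than wild type in Mfp2KO, at -0.12 and -0.09 on the log2 scale, and Abca1 and Lpl stayed higher, at 0.85 and 0.54.

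Nr1h3, the LXRα gene, had the largest contrast between the knockouts among regions called in every list. Overlapping peaks of the 3 lists were joined into regions, 8 of them in this window and 4 called in every genotype. The region at chr2:91024179-91028048 had 161 tags over 3869 bp in wild type, 36.7 tags over 1309 bp in Bmal1KO and 404 tags over 3267 bp in Mfp2KO. Bmal1KO stood at 0.228-fold of wild type (interval 0.162 to 0.312), lower than all but 4.37% of the 17614 regions called in both lists. Mfp2KO stood at 2.51-fold (2.16 to 2.91), or 1.86-fold relative to the median region. Density followed the same order, with 41.7 tags per kb in wild type, 28.0 for Bmal1KO and 124 for Mfp2KO. Input was 6.44, 2.68 and 7.16 tags per kb there, so the wild-type and Mfp2KO inputs were close while the Bmal1KO input, over its shorter peak, was lower. Enrichment over input, as the authors give it within each list, was 6.47-fold, 10.5-fold and 17.3-fold. By this measure Bmal1KO was thus above wild type, unlike in tags and density.

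Among the 8 regions this one lay closest to where the listed starts of Nr1h3 would be placed. In RefSeq's other build the starts of Nr1h3 and of its neighbour Madd, both on the minus strand, lie 12 kb apart for the nearest pair, and Madd begins next to the far end of Nr1h3. In mm39 the region above lies 12.5 kb, centre to centre, from the region that spans the Madd side of the gene. No position was converted between builds, so this placement is approximate. RefSeq gives Nr1h3 as 18.8 kb long, with the listed starts 11.1 and 11.0 kb from its far end. The gene thus reaches further up than these starts. The region near the listed starts is called the Nr1h3 start region below, although it may lie inside the gene. The Madd-side region at chr2:91011568-91015743 was the strongest of the window in wild type and differed far less, with 412 tags in wild type, 295 for Bmal1KO and 374 for Mfp2KO. These are 0.717-fold (0.629 to 0.815) and 0.908-fold (0.810 to 1.02) of wild type, and relative to the median region 0.850-fold and 0.673-fold. Per kb the Madd-side ratios were 0.812 for Bmal1KO and 1.29 for Mfp2KO. Without it the Nr1h3 window stood at -1.18 in Bmal1KO and 0.99 in Mfp2KO on the log2 scale, against -0.75 and 0.47 with it.

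The other Nr1h3 regions did not move as one. Acp2, a lysosomal phosphatase gene on the plus strand, overlaps Nr1h3 in RefSeq, with its start 7.80 kb from the nearest listed Nr1h3 start. The region at chr2:91031713-91035010 lies 7.25 kb from the one at the listed Nr1h3 starts. With about 10 kb of flank in the window, the upper end of Nr1h3 also falls within this region. It had 70.6, 43.9 and 118 tags in wild type, Bmal1KO and Mfp2KO. Bmal1KO was at 0.622-fold of wild type (0.443 to 0.870) and Mfp2KO at 1.67-fold (1.32 to 2.14). Further out, at chr2:91036362-91037793, wild type had 35.1 tags and Mfp2KO 116, or 3.31-fold (2.47 to 4.61), and the nearest Bmal1KO peak lay 2455 bp from that of Mfp2KO. Within the gene, chr2:91016696-91019142 ran the opposite way, with 49.1 tags in wild type, 66.6 for Bmal1KO and 11.7 for Mfp2KO. Mfp2KO was at 0.238-fold of wild type there (0.130 to 0.389), while the Bmal1KO interval of 0.972 to 1.85 included no difference. The Mfp2KO peak was 626 bp long against 2269 bp in wild type, and its density, 18.7 tags per kb against 21.6, was 0.864 times that of wild type, so most of the lower tag count went with the shorter call.

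Abca1 had little called acetylation for its length: peaks covered 2.998% of its window in wild type, 0.420% for Bmal1KO and 2.93% for Mfp2KO. Each list had a peak at chr4:53158761-53160729, about 10 kb inside the upper end of the window, where a minus-strand gene begins. It held 78.5 tags over 1759 bp in wild type, 43.5 tags over 634 bp in Bmal1KO and 252 tags over 1525 bp in Mfp2KO. Bmal1KO was at 0.554-fold of wild type (0.399 to 0.774) and Mfp2KO at 3.21-fold (2.61 to 3.95), or 0.657-fold and 2.38-fold relative to the median region. Per kb both knockouts were above wild type, at 1.54 and 3.70 times. Input moved with it. Input tags per kb in the peak were 9.37 for wild type, 17.1 for Bmal1KO and 23.8 for Mfp2KO, above the list medians of 3.99, 4.31 and 5.61, and the part of input in the difference was not tested. Enrichment over input was 4.76-fold for wild type, 4.01-fold for Bmal1KO and 6.93-fold for Mfp2KO, so the Bmal1KO peak lay just above the authors' limit of 4-fold. The Abca1 sum in Bmal1KO also depended on the window: 6944 bp below it lay a wild-type peak with 101 tags, matched by 183 tags in Bmal1KO and 317 in Mfp2KO. It lies within the longer windows. In its other build RefSeq places the plus-strand gene Nipsnap3b 8729 bp below Abca1. Which gene this peak belongs to was not tested.

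A pair of regions within Abca1 was called in wild type and Mfp2KO and not in Bmal1KO. The first, chr4:53115000-53116666, held 9.81 tags over 500 bp in the wild-type list and 60.5 tags over 1666 bp in that of Mfp2KO. The ratio of 6.17-fold (3.66 to 11.8) was the highest of the 13 regions at the 5 loci called in both lists, and it was larger than 97.2% of all 16682 such regions. Per kb the ratio was 1.85, as the Mfp2KO peak was the longer one. At chr4:53119158-53121426 wild type had 39.9 tags and Mfp2KO 29.8, or 0.747-fold (0.501 to 1.11), and 1.37 times per kb. The nearest Bmal1KO peaks lay 42690 and 38392 bp from these Mfp2KO peaks. In wild type the enrichment over input of both was low, at 4.86-fold and 4.74-fold.

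Abcg1, the other transporter gene, carried the longest acetylated stretch of the 5 windows and kept most of it in both knockouts. Its main region, chr17:31285106-31297637, had 444 tags over 11737 bp in wild type, 446 tags over 7182 bp in Bmal1KO and 566 tags over 10232 bp in 3 Mfp2KO peaks. The ratios were 1.00-fold (0.897 to 1.12) in Bmal1KO and 1.27-fold (1.15 to 1.41) in Mfp2KO, and relative to the median region 1.19-fold and 0.945-fold. Tags here thus differed little from wild type, while called length was 61.2% and 87.2% of it. The region at the lower end of the gene, chr17:31275450-31281508, had 286 tags over 6058 bp in wild type, 200 tags over 2947 bp in Bmal1KO and 516 tags over 2347 bp in Mfp2KO. In Mfp2KO more tags thus lay in a shorter peak, with 220 tags per kb against 47.2 in wild type, the largest density ratio of the 5 loci at 4.65. Input per kb was 7.55, 8.55 and 16.5 in wild type, Bmal1KO and Mfp2KO, and its part in the difference was not tested.

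Beyond these the Abcg1 window held 9 weaker regions. At chr17:31298025-31301152 wild type had 62.7 tags and Mfp2KO 33.6, at 0.536-fold (0.376 to 0.755). The peaks were 3127 and 1054 bp long, and per kb the direction turned, with 20.1 tags in wild type and 31.9 in Mfp2KO. The nearest Bmal1KO peak lay 1637 bp from the wild-type peak. The other 8 were each called in 1 list only, 4 in wild type, 3 in Mfp2KO and 1 in Bmal1KO, and none had more than 20.9 tags. The strongest of them, at chr17:31305912-31307075 in wild type, had 10.4-fold enrichment over input.

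Apoe had no wild-type peak in its window and a broad peak in Mfp2KO. The Mfp2KO peak at chr7:19431417-19436848 held 213 tags over 5431 bp, and a second at chr7:19426954-19427765 held 35.2 tags. Bmal1KO had 3 peaks of 500 bp with 8.78, 10.4 and 9.57 tags, the last of them inside the long Mfp2KO peak. There Bmal1KO had 19.1 tags per kb and Mfp2KO 39.2, a density ratio of 2.05. The nearest wild-type peak lay 10710 bp above the long Mfp2KO peak, outside the window, with 385 tags. That outside peak was called in every list, with 601 tags in Bmal1KO and 798 in Mfp2KO, so this stretch of chromosome 7 was not devoid of peaks in wild type. The gene is short and has neighbours on either side: RefSeq places Apoc1, another apolipoprotein gene, below it and Tomm40, a mitochondrial import gene on the same strand, directly above it. The long Mfp2KO peak spans from 11.4 to 16.8 kb of the window and so covers the upper end of Apoe, where the minus-strand gene begins, and sequence beyond it.

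Every Apoe peak was close to the limit of the peak caller. Enrichment over input was 4.71-fold and 4.51-fold for the Mfp2KO peaks and between 4.12-fold and 5.35-fold for those of Bmal1KO, and no list had a peak here at 6-fold or more. Input in the Mfp2KO peaks was 8.33 and 9.62 tags per kb, above the list median of 5.61. A missing wild-type peak does not show that the mark was absent, and no ratio to wild type can be given. Among the 17076 Mfp2KO peaks of 20 tags or more, 11.5% had no wild-type peak, and the Apoe peaks were the 2 such cases among 16 at the 5 loci.

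Lpl, the lipase gene, had 1 strong region at its lower end and a group of weak ones near the upper end of its window. At chr8:69332232-69335887 wild type had 173 tags over 3578 bp, Bmal1KO 130 tags over 3275 bp and Mfp2KO 499 tags over 3479 bp. Length was nearly the same in all 3 lists, so here tags and density gave the same order, with 48.2, 39.8 and 143 tags per kb. Bmal1KO was at 0.756-fold (0.618 to 0.920) and Mfp2KO at 2.89-fold (2.52 to 3.34), and relative to the median region at 0.897-fold and 2.15-fold. Input was almost level, at 5.17, 4.97 and 5.83 tags per kb in wild type, Bmal1KO and Mfp2KO. The Mfp2KO peak had 24.6-fold enrichment over input, in the top 5.74% of its list, compared with 9.32-fold in wild type and 8.01-fold in Bmal1KO.

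Near the upper end of the Lpl window, beyond the gene, wild type had a row of 5 short peaks with 6.97 to 36.4 tags. The region at chr8:69367224-69370079, which joins the pair of them farthest up, had 45.6 tags in wild type, 31.5 in Bmal1KO and 104 in 1 longer Mfp2KO peak. Mfp2KO was at 2.28-fold (1.74 to 3.10), and the Bmal1KO interval of 0.456 to 1.04 included no difference. At chr8:69363210-69364944 wild type had 27.2 tags and Bmal1KO 7.18, or 0.264-fold (0.113 to 0.549), and Mfp2KO had no peak. The calls were 1734 and 500 bp long and of like density, 15.7 and 14.4 tags per kb, so the lower count went with the shorter call. Next to the strong region, a wild-type peak at chr8:69336394-69337783 with 20.6 tags had no counterpart in either knockout. Both strongest Lpl regions were thus called in all 3 lists, and the 4 others were not in Mfp2KO.

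Weak peaks set most of the counts of missing peaks. Of the 24 wild-type peaks, 14 had no Bmal1KO peak, or 58.3% (95% Wilson interval 38.8 to 75.5), and the background over all wild-type peaks was 38.9%. Mfp2KO had no peak at 10 of the 24, or 41.7% (24.5 to 61.2), near the background of 41.4%. All 9 of the wild-type peaks under 20 tags were without a Bmal1KO peak, where the background for such peaks was 82%, and 7 of the 9 were without an Mfp2KO peak, where it was 83.6%. Of the 15 with 20 tags or more, 5 were without a Bmal1KO peak against a background of 13.7%, and 3 were without an Mfp2KO peak against 16.8%. The 5 were the Abca1 region at chr4:53119158-53121426, the wild-type peaks at chr17:31298025-31301152 and chr17:31305912-31307075 of Abcg1, the Lpl peak at chr8:69336394-69337783 and the outermost Nr1h3 region. Of these, chr17:31305912-31307075 and chr8:69336394-69337783, with 20.9 and 20.6 tags, lay just above the limit of 20, below which most wild-type peaks had no counterpart. Peaks of 1 window share a locus and are not independent. In the other direction 4 of 15 Bmal1KO peaks and 6 of 21 Mfp2KO peaks had no wild-type peak, or 26.7% and 28.6%, close to the backgrounds of 23.6% and 25.4%. No Bmal1KO peak of 20 tags or more was among the 4, where the background was 5.14%. Under 20 tags, 4 of 6 Bmal1KO peaks lacked a wild-type peak against a background of 52.5%, and 4 of 5 Mfp2KO peaks against 57.5%.

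Between the knockouts, 10 of the 21 Mfp2KO peaks had no Bmal1KO peak, or 47.6% (28.3 to 67.6), against a background of 32.1%. They included 6 of the 16 with 20 tags or more, against 16%, and 4 of the 5 weaker ones, against 69.5%. The 6 lay at Abca1, with 2, Abcg1, with 2, Apoe, with 1, and Nr1h3, with 1. Of the 15 Bmal1KO peaks, 5 had no Mfp2KO peak, against a background of 34.6%. All 5 were among the 6 with under 20 tags, where the background was 73.3%, and none was among the 9 stronger ones, where it was 9.8%.

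**Figure D3:**
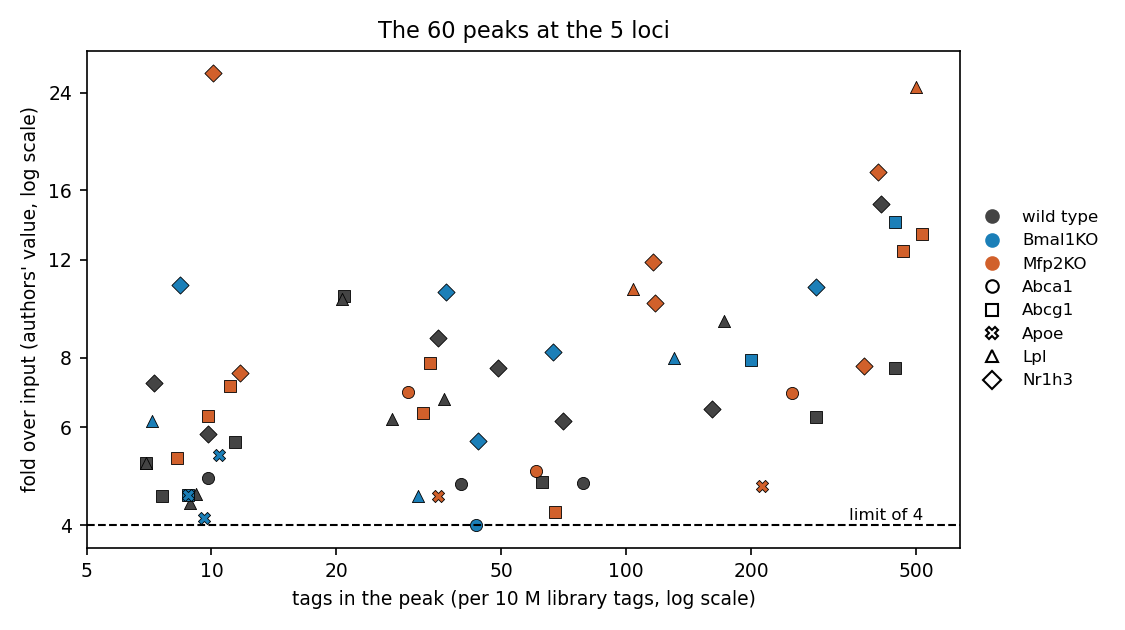
Fold over input, as the authors give it, against tags for each of the 60 peaks (log scales; colour shows the genotype, marker shape the gene), with the authors' limit of 4-fold as a dashed line. The Apoe peaks of both knockouts and the Bmal1KO peak of Abca1 sit near the limit, and the Lpl peak of Mfp2KO with 499 tags is at 24.6-fold.

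Over regions called in both lists, most of those at the 5 loci had fewer tags in Bmal1KO and more in Mfp2KO than in wild type, as did most regions of the lists. In Bmal1KO 2 of 10 regions had more tags and 8 fewer, where 39.7% of all regions had more, with a median of 0.694-fold against 0.843-fold for all 17614 regions. At least 2-fold lower were 2 of the 10, the Nr1h3 start region and the Lpl region at chr8:69363210-69364944, against a background of 21.9%, and none was 2-fold higher against 5.49%. Relative to the median region the counts were again 2 and 0, against 16.3% and 11%. In Mfp2KO 9 of 13 had more tags, where 62.7% of all regions did, with a median of 1.80-fold against 1.35-fold for all 16682 regions. At least 2-fold higher were 6 of the 13 against a background of 31.1%: the first and last regions of Abca1, both shared Lpl regions, and the start and outermost regions of Nr1h3. Relative to the median region, 4 of the 13 were 2-fold higher, against 18.7%, and 2 were 2-fold lower, against 25%. Only the Nr1h3 region at chr2:91016696-91019142 was 2-fold lower in Mfp2KO, against 18.5%. The 2 comparisons share the wild-type library.

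**Figure D4:**
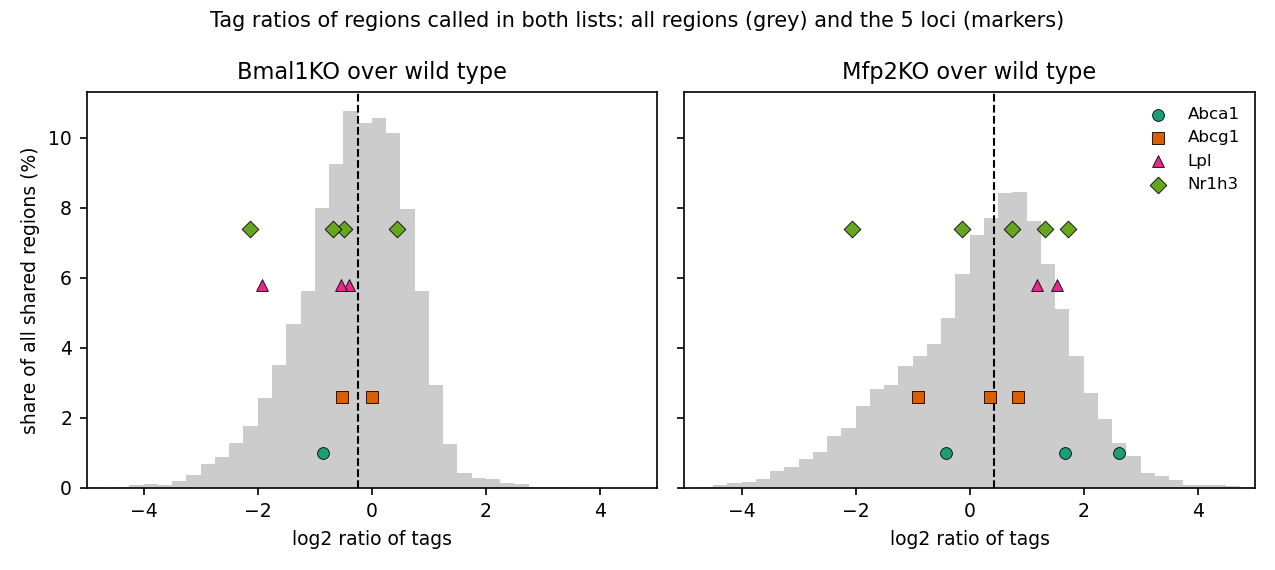
Log2 ratio of tags of each knockout to wild type for all regions called in both lists (grey, share of regions in %) with the regions of the 5 loci as markers placed by gene, and the median of all regions as a dashed line. In Bmal1KO the lowest marker is the Nr1h3 start region at -2.13, and in Mfp2KO the highest is the Abca1 region at 2.62.

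In tags, the knockouts differed from each other more than either differed from wild type at several regions. Mfp2KO had 11.0 times the tags of Bmal1KO (8.16 to 15.2) at the Nr1h3 start region, 5.78 times (4.32 to 7.75) at the Abca1 start region and 3.83 times (3.24 to 4.57) at the strong Lpl region. Per kb these were 4.41, 2.40 and 3.60 times. At the Abca1 start region both knockouts were denser than wild type. There Mfp2KO stood further from wild type per kb, at 3.70 times, than from Bmal1KO. For all 15600 regions called in both knockouts the median was 1.40 times in tags and 1.44 times per kb. At least 2-fold higher in Mfp2KO were 7 of the 10 regions at the 5 loci called in both, against a background of 27.9%, and 5 of 10 relative to the median region, against 17.1%. The Nr1h3 region at chr2:91016696-91019142 was the 1 that was 2-fold lower, against 7.23%, and 12.9% relative to the median region. The main region of Abcg1, at 1.27 times (1.14 to 1.41), and the Madd-side region of Nr1h3, at 1.27 times (1.11 to 1.45), lay below the median of all regions.

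In rank within their own lists these peaks were moderate. None of the 60 was in the top 5% of its list by tags. The highest in wild type was the main Abcg1 peak with 444 tags, in the top 7.72%, followed by the Madd-side peak of the Nr1h3 window in the top 8.85%. Median tags per peak were 31.2 for wild type, 36.7 for Bmal1KO and 67.5 for Mfp2KO, where the medians over the whole lists were 41.2, 36.3 and 66.2, so the wild-type peaks were weaker than their list and those of the knockouts near theirs. Median enrichment over input was 6.20-fold, 6.17-fold and 7.51-fold, below the medians of 7.12-fold, 7.74-fold and 8.46-fold. Under 6-fold were 11 of 24 wild-type, 7 of 15 Bmal1KO and 5 of 21 Mfp2KO peaks, where 34.9%, 31.9% and 29.0% of all peaks were. Other genes of the pathway and markers of the cell type were not analysed here, since no gene positions of the peaks' build were used beyond the 5 windows.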

How the data were processed

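H3K27ac ChIP-seq libraries of wild-type, Bmal1KO and Mfp2KO RAW264.7 cells, 1 per genotype with 1 input each, were analysed as 3 peak lists, grouped by sample title. Per the labels' protocols cells were fixed with formaldehyde and sonicated. Tools in the submitters' processing notes are HOMER 5.1, MACS3 3.0.3, BWA 0.7.19-r1273, fastp 1.0.1, Picard 3.4.0 and SAMtools 1.23, and the build is mm39. The authors' peak calls, per the file headers, come from HOMER findPeaks in histone style on each library, from 500 bp windows, with at least 4-fold over input. How duplicate reads were treated: not given in the sources used here.

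Normalized tag count is a signal the authors scaled to 10 M library tags, per the file headers. Fold over input is a ratio deposited by the authors, each value over the input of its own genotype. Values of different lists are set side by side, without a ratio between lists. The deposited p-value over input and the findPeaks score were not used further. Input tags, a deposited signal, were put here on the same scale per 10 M tags.

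Peaks overlapping by at least 1 bp were joined into regions (Python 3.11.15, scipy 1.17.1). Shares have Wilson intervals, and tag ratios have exact Clopper-Pearson intervals that treat each tag as independent. These cover counting error only. Ratios were set beside the median of all regions called in both lists. Regions named are the 3 with most tags per window, those at gene starts, those farthest from wild type, and the strongest missing from a list. Code was tested on simulated data. The gene table is of another build, so the planned lists of pathway genes and cell markers were not run. Members and lists were chosen with earlier results of these data known.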

Additional observations from a re-analysis of the deposited data

How the results depend on the processing

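Alternatives changed window, overlap, limits and scaling one at a time. Of the recomputed values that answer a comparison, 31 stayed within a counting interval around the reported value or close to the reported length, 23 moved further and 2 changed sign. For a median over regions the width of that interval came from their summed tags. For a median over loci it was the median width of the single loci. Neither is the error of the median itself. Leaving out a library was not possible with 1 per genotype. No paired analysis was possible because each genotype has 1 library.

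With peaks of at least 20 tags, 33.3% of the wild-type ones lacked a Bmal1KO peak and 20% an Mfp2KO peak, and 0% of Bmal1KO and 12.5% of Mfp2KO peaks lacked a wild-type one. At 6-fold over input or more in both lists, 0% of 8 Bmal1KO peaks lacked a wild-type peak. The median log2 ratio of regions was -0.53 in Bmal1KO. It became -0.28 relative to the median region and -0.63 with peaks within 1 kb joined, and turned to 0.030 per kb of called length, where all regions had 0.047. In Mfp2KO it was 0.85, and it became 0.29 as a share of tags in peaks, 0.42 relative to the median region, 0.67 per kb (all regions 0.65), 0.93 with peaks joined, 0.74 for the genes without flanks and 0.95 with windows 15 kb longer on each side.

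The median over loci of the summed tags was -0.74 in Bmal1KO. It was -0.50 relative to the median region, -0.53 with longer windows, where Apoe enters at 0.67, and -0.96 without the Madd-side region, an alternative added after the data were seen. Per kb it turned to 0.47, with Abca1 at 1.28, Abcg1 at 0.80, Lpl at 0.14 and Nr1h3 at 0.086. The value per kb divides the tag ratio by the length ratio, and in Bmal1KO called length was lower by more than tags at each of these loci. In Mfp2KO the median was 0.79, and it was 0.22 as a share of tags in peaks, where Abcg1 turned to -0.12 and Nr1h3 to -0.089. It was 0.35 relative to the median region, 1.26 per kb, 1.10 with longer windows (Apoe at 1.45), 0.51 at 6-fold or more, with 3 loci left, and 1.04 without the Madd-side region. For both Apoe values, all 414 wild-type tags lay in 2 peaks outside the Apoe window itself. The stronger of these peaks held 385 tags in wild type, 601 of 659 in Bmal1KO and 798 of 1133 in Mfp2KO. These values therefore give no ratio to wild type for the Apoe window itself. Called length in Bmal1KO was 49.9% of wild type and 58.4% with longer windows. In the longer windows Abca1 in Bmal1KO went from -1.56 to -0.02, through a peak just below the window. The causes of these shifts were not tested. The effect of depth on the calls was not tested, and the lists require 9 or 10 tags per window.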
